A study of Sus scrofa with 23 samples.

Results

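The prefrontal cortex of pigs in batch 2 was compared with that of pigs in batch 1. The libraries were divided by the batch given in the labels, which also matches the animal numbers, and the comparison used all 23 libraries of the series, 12 in batch 2 and 11 in batch 1, with 1 library per animal. Genes were taken across the whole transcriptome, and 15049 of the 25880 genes in the table had enough counts to be tested. All animals were female adolescent pigs of 20 kg that received 1 intravenous injection while awake, either saline or 0.08 mg/kg of psilocybin, the prodrug of psilocin, an agonist of the serotonin 2A receptor. An overdose of pentobarbital ended the experiment after 1 day or 1 week. Brains were frozen at once, and libraries of poly-A RNA were made from the prefrontal cortex (NEBNext Ultra 2). Both batches held all 4 treatment and time groups. Each batch had 3 animals given psilocybin and killed at 1 day, 3 given psilocybin and killed at 1 week, and 3 given saline and killed at 1 week. Saline animals killed at 1 day numbered 2 in batch 1 and 3 in batch 2. The series states 6 animals per group, and 1 saline animal at 1 day is not analysed here. What the batches differed in (litter, delivery, dissection, library preparation or sequencing) is not given in the sources used here, and these cannot be told apart.

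The prefrontal cortex is a layered tissue in which excitatory pyramidal neurons release glutamate and inhibitory interneurons release GABA. Astrocytes clear transmitter from the synapse, oligodendrocytes and their precursors make and renew myelin, microglia are the resident immune cells, and small vessels carry blood through the tissue. The level of a gene in such a bulk sample depends on how many cells of each type it holds and on how much RNA each cell makes, and fewer cells of a type cannot be told apart from less RNA per cell.

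Assigned counts ranged from 9623029 to 16212439 per library in batch 1 and from 9504421 to 18654626 in batch 2. The tissue carried the markers of cortical excitatory neurons in every library, with SLC17A7 between 937 and 1495 CPM (counts scaled to a common library total) and CAMK2A between 2806 and 4504 CPM. Before batch was modelled, the first principal component of the log2 levels separated the batches, with a mean of -18.3 in batch 1 and 16.7 in batch 2 (exact permutation of batch labels within the groups, p = 2.5e-05, 0.000275 after adjustment over 11 library measures, 80000 arrangements). The ranges on it were -38.4 to 4.63 and -10.5 to 25.9, so they overlapped. This call was kept when each library was left out in turn. After the batch difference was removed, 3 libraries stood apart on the first component: batch 2 animal 9 (saline, 1 day, score 40.06), batch 1 animal 9 (saline, 1 week, 37.75) and batch 2 animal 6 (psilocybin, 1 week, 28.34), with the next library at 20.13.

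**Figure D1:**
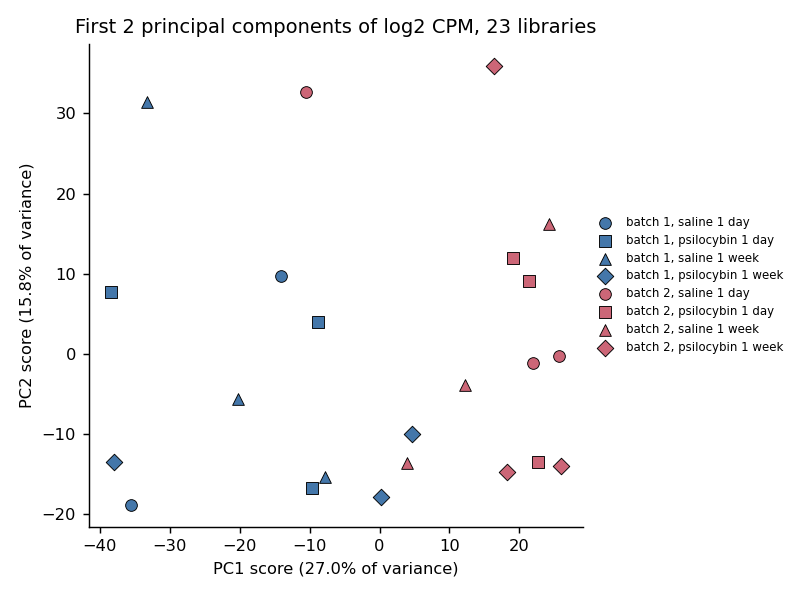
Libraries on the first 2 principal components of log2 CPM over the tested genes, with the percent of variance on each axis (27.0% and 15.8%). Colour gives the batch and marker shape the treatment and time group; batch 1 libraries lie mostly to the left (-38.4 to 4.63) and batch 2 libraries mostly to the right (-10.5 to 25.9).

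Mitochondrially encoded transcripts took 13.3% ± 1.68 (SD, n = 11) of counts in batch 1 and 10.99% ± 2.12 (SD, n = 12) in batch 2. The difference had an adjusted p of 0.0485 by the same exact permutation test, and the ranges, 9.73% to 15.6% and 7.08% to 14.9%, overlapped widely. The share of counts taken by the 10 most abundant genes was 12.7% in batch 1 and 10.6% in batch 2, and that of the 100 most abundant 26.1% and 24.0% (adjusted exact permutation p = 0.0485 for both). The mean exon length per gene, weighted by counts, was 4454 ± 130 bases in batch 1 and 4650 ± 162 in batch 2 (SD, adjusted exact permutation p = 0.0458). These 4 calls lay close to the threshold of 0.05, and most omissions of 1 library removed them, though the differences kept their sign. With 1 library left out, the mitochondrial share no longer passed in 15 of the 23 cases, the shares of the 10 and of the 100 most abundant genes in 16 each, and the mean exon length in 14. The highest adjusted p, 0.0901 for the mitochondrial share and for exon length and 0.0951 for both top shares, came without batch 1 animal 9. Total count, the number of genes with at least 10 counts and the share of cytosolic ribosomal protein genes did not pass (adjusted exact permutation p of 0.422, 0.49 and 0.422).

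Across genes, 4955 of 15049 passed at an adjusted p under 0.05, which is 32.9% (edgeR's quasi-likelihood test with Benjamini-Hochberg adjustment, used for all gene results here, with the 4 groups as covariate). Of these, 2428 (16.1%) were higher and 2527 (16.8%) lower in batch 2. Most differences were small. The median size among the called genes was 0.33 on the log2 scale, or 1.26-fold, 84.7% were under 1.5-fold and 3.83% reached 2-fold. At 1.5-fold or more, 549 genes were higher and 207 lower, and at 2-fold or more 140 were higher and 50 lower. The number of lower genes depended on single libraries: it was 1560 without batch 1 animal 4 and 1675 without batch 1 animal 1.

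Ranges of the 2 batches did not overlap for 82 genes, 0.545% of those tested, of which 67 (0.445%) were higher and 15 (0.0997%) lower in batch 2. Called genes had the same sign in all 4 groups in 4728 cases (95.4%), against 7420 of all tested genes (49.3%). Called and tested genes come from the same libraries, so the first share describes how even the differences were and is no separate test. Batch took a median of 13.89% of a gene's variance in log2 CPM with 1 degree of freedom, and the 4 groups took a median of 7.487% with 3. The degrees of freedom alone would give 4.55% and 13.6%. These 2 values are expected means, not medians, so they are only a rough reference. The common biological coefficient of variation was 15.84% with batch in the model and 18.66% without it.

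Long genes were higher more often. Over the tested genes, the Spearman correlation of the fold change with the genomic span of the gene was 0.362, and with exon length 0.222 (a description across genes of the same libraries). In the fifth of genes with the shortest span (median 4.152 kb) 8.67% were higher and 28% lower, and in the fifth with the longest (median 157.997 kb) 32.8% were higher and 5.65% lower. Within single libraries, the correlation between a gene's level relative to its mean and its span ran from -0.348 to 0.110 in batch 1 and from -0.166 to 0.320 in batch 2, so the libraries of the batches overlapped. Many neuronal adhesion, receptor and channel genes are long, and their part in the results below, or that of RNA length, was not tested. With each library's trend on span removed, a setting added after the data were seen, 4019 genes passed, 3223 of them among the 4955. In this setting 14 of the 4955 changed sign. List counts under it are given below only for the GABA-A receptor, glutamate receptor, respiratory chain and mitochondrial ribosomal lists. How the counts of the other lists depend on span is not given here.

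The genes with the smallest p among those higher in batch 2 included adhesion molecules, signalling proteins and transcription regulators. NCAM2, a neural cell adhesion molecule of the immunoglobulin superfamily (chromosome 13, 185463088 to 185674515, susScr11), ran from 10.1 to 27.0 CPM with a median of 19.6 in batch 1, and from 27.5 to 52.0 with a median of 44.5 in batch 2. Its log2 fold change was 1.24 ± 0.14 (SE, adjusted p = 3.43e-05), and every batch 2 animal was above every batch 1 animal. SKIL, a repressor of transforming growth factor beta signalling (chromosome 13, 109029856 to 109059171), ran from 25.99 to 37.8 CPM (median 35.0) in batch 1 and from 42.4 to 51.5 (median 48.8) in batch 2, a smaller difference (0.52 ± 0.07 SE, adjusted p = 5.96e-05) with no overlap. DOK6, an adaptor of receptor tyrosine kinases, ITGB8, the integrin beta 8 subunit, DPP10, an auxiliary subunit of Kv4 potassium channels, PURB, GNB4, a G protein beta subunit, STRN and PPM1E were likewise higher in every batch 2 animal, with log2 fold changes between 0.46 for PPM1E and 1.29 for PURB. FAM199X (0.88) and BCL11B (1.29), a transcription factor of deep-layer projection neurons, passed with overlapping ranges.

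Among the 12 higher genes with the smallest p, the largest fold change was that of SLC1A2, the main astrocytic glutamate transporter (chromosome 2, 25604950 to 25766656). It ran from 73.3 to 276 CPM (median 138) in batch 1 and from 219 to 727 (median 405) in batch 2. The difference was 1.54 ± 0.20 on the log2 scale (SE, 2.91-fold, adjusted p = 5.96e-05), and the ranges overlapped between 219 and 276 CPM. Among genes at 1 CPM or more, the other large increases were in CHRM3, a muscarinic acetylcholine receptor (1.70 ± 0.32, 3.24-fold), SV2C, a synaptic vesicle glycoprotein (1.65 ± 0.22), FUT9, a fucosyltransferase (1.58 ± 0.21, no overlap), SELENOI (1.56 ± 0.26), NRXN3, a presynaptic adhesion receptor (1.499 ± 0.23), KCNA2, a Kv1 potassium channel (1.48 ± 0.25) and PSD3 (1.45 ± 0.25). All are SE, with adjusted p between 6.16e-05 and 0.000586.

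Among the genes lower in batch 2, CCDC136 (chromosome 18, 19790358 to 19824453) ran from 201 to 244 CPM (median 237) in batch 1 and from 158 to 190 (median 173) in batch 2, with no overlap (-0.39 ± 0.05 SE, adjusted p = 5.96e-05). NR2F1, an orphan nuclear receptor that patterns the cortex along its area axis (chromosome 2, 100447904 to 100457904), ran from 153 to 206 CPM (median 172) and from 105 to 144 (median 128), again without overlap (-0.51 ± 0.06 SE, adjusted p = 5.96e-05). FGF18, a secreted fibroblast growth factor, was at 2.14 to 4.07 CPM and at 0.835 to 2.09 CPM (-1.03 ± 0.14 SE, no overlap). PDLIM7, SLC27A3, SH3BP2 and BRAT1 also had ranges that did not overlap, with log2 fold changes of -0.44, -0.68, -0.46 and -0.61. OIP5, FNDC4, TM4SF5, NFIB, a transcription factor of glial and neuronal development, and PTGDS, the prostaglandin D2 synthase, passed with overlap. The most negative fold changes at 1 CPM or more were those of VMO1 (-1.81 ± 0.28 SE) and the beta globin HBB (-1.73 ± 0.43 SE). VMO1 lies within the span of TM4SF5 on the other strand, and counting without strand cannot tell the reads of these 2 genes apart.

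**Figure D2:**
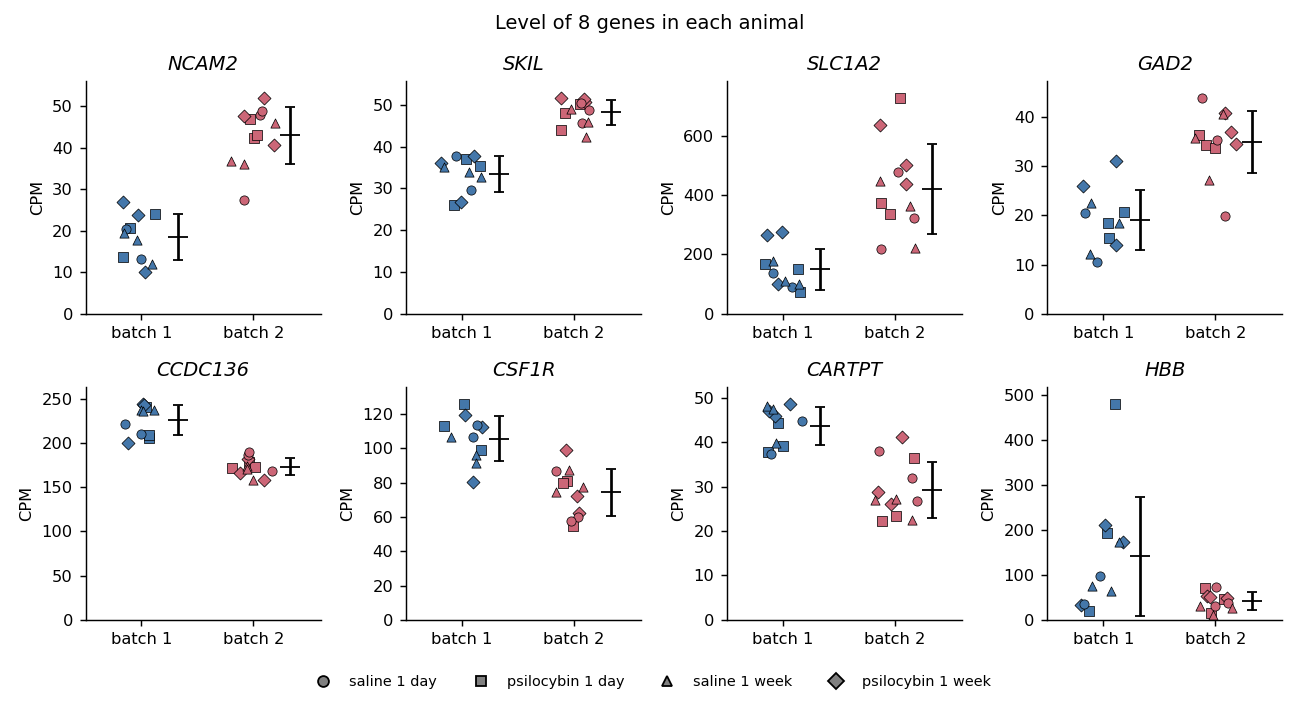
CPM of 8 genes in each animal, by batch (11 and 12 animals), with mean and SD as lines; marker shape gives the treatment and time group. NCAM2 and SKIL are higher and CCDC136 lower in every batch 2 animal, while SLC1A2, GAD2, CSF1R, CARTPT and HBB overlap between batches, and HBB in batch 1 is widened by 1 animal at 479 CPM.

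Receptors of the GABA synapse were among the higher groups. GABA-A receptors are pentameric chloride channels that carry fast inhibition, and 6 of 13 tested subunit genes rose and 0 fell, with a median log2 fold change of 0.19 (all tested genes: 16.1% higher, 16.8% lower, median -0.02). GABRA2, the alpha 2 subunit, ran from 18.4 to 62.3 CPM (median 35.7) in batch 1 and from 47.5 to 83.2 (median 77.2) in batch 2 (1.06 ± 0.16 SE, adjusted p = 0.000132). GABRG1 (0.70 ± 0.12), GABRB1 (0.56 ± 0.12) and GABRA4 (0.25 ± 0.05) also rose. These 4 genes lie next to each other in 1 cluster on chromosome 8, between 36198933 and 37355332. The count of 6 was 10 without batch 1 animal 5, 11 without batch 2 animal 9, and 4 with the span trend removed.

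Glutamate receptors, the main excitatory receptors of cortex, gave 9 higher and 2 lower among 24 tested genes (median 0.13). The metabotropic receptor GRM5 ran from 18.3 to 54.0 CPM (median 33.7) in batch 1 and from 34.7 to 80.3 (median 74.2) in batch 2 (1.04 ± 0.17 SE, adjusted p = 0.000247). GRM3, which couples to inhibitory G proteins, was higher in every batch 2 animal, with 72.7 to 105 CPM against 105 to 137 (0.33 ± 0.06 SE). GRIK3, a kainate receptor subunit, rose by 1.19 and GRIN2A, an NMDA receptor subunit, by 0.94. GRIN2B, the NMDA subunit that predominates early in development, fell by 0.59 (adjusted p = 0.0119), from 13.3 to 37.3 CPM (median 20.3) to 9.62 to 21.5 CPM (median 16.5). GRIA1, an AMPA receptor subunit, rose by 0.30. GRIN2B and GRIA1 were chosen after their values were seen. With the span trend removed the list stood at 6 higher and 6 lower, and GRIA1 no longer passed.

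At the postsynaptic side, 8 of 22 scaffold and adhesion genes rose and 2 fell (median 0.12). They included the neuroligin NLGN3 (0.47), LRRTM2 (0.47), the membrane-associated guanylate kinase homologue DLG3 (0.66) and SHANK2 (0.75), which anchor receptors to the density. The count of lower genes was 1 in 18 of the 23 cases with 1 library left out.

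Presynaptic genes moved both ways, with 10 higher and 6 lower among 29 (median 0.05). BSN, the active zone scaffold bassoon, ran from 25.5 to 134 CPM (median 59.2) in batch 1 and from 78.4 to 211 (median 164) in batch 2 (1.16 ± 0.25 SE, adjusted p = 0.00156). SV2C rose as given above and SV2B by 0.43 (adjusted p = 0.00164). SYT2, a fast calcium sensor for release, fell by 0.77 and CPLX1, a complexin, by 0.46, while its paralogue CPLX2 rose by 0.17 (adjusted p = 0.0116, not passing with the span trend removed). SV2B and CPLX2 were chosen after their values were seen. Only 2 presynaptic genes were lower without batch 1 animal 1, 4 or 9.

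Voltage-gated sodium, potassium and calcium channels set the firing of neurons, and 15 of 37 rose and 3 fell (median 0.14). KCND3, a Kv4 channel, rose by 1.40 and KCNC2, a Kv3 channel of fast-spiking cells, by 0.34. The sodium channel genes SCN2A (0.59) and SCN8A (0.71), chosen after their values were seen, rose as well. Without batch 1 animal 6 the lower count was 5.

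Matrix genes, among them components of the perineuronal nets that surround fast-spiking interneurons, gave 9 higher and 0 lower of 24 (median 0.18). TNR, the net protein tenascin R, rose from a median of 13.9 CPM (9.20 to 18.4) to 25.5 CPM (10.3 to 32.3), a difference of 0.84 ± 0.14 (SE, adjusted p = 0.000227). PTPRZ1, a receptor phosphatase that carries chondroitin sulphate, rose by 0.34, the proteoglycan SPOCK1 by 0.58 and the membrane metalloprotease MMP16 by 0.63. A single gene of this list was lower without batch 1 animal 2, batch 2 animal 1 or batch 2 animal 8.

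Of 17 inhibitory neuron genes 7 were higher and 1 lower (median 0.09). GAD2, one of the pair of GABA-synthesising enzymes, ran from 10.5 to 31.2 CPM (median 18.5) in batch 1 and from 19.9 to 43.9 (median 35.6) in batch 2 (0.90 ± 0.14 SE, adjusted p = 0.000188). GAD1, the other, was at 215 to 337 CPM and 213 to 305 CPM with a median of 267 in both batches (-0.04 ± 0.07 SE, adjusted p = 0.712). ERBB4, a neuregulin receptor of interneurons, rose by 0.97 and PROX1 by 1.23. KCNC2, given above with the channels, is on the inhibitory neuron list too. PVALB, the calcium buffer of fast-spiking interneurons, fell by 0.64 (36.7 to 82.0 CPM against 28.5 to 73.1, adjusted p = 0.00185), and the somatostatin gene SST was at -0.22 (adjusted p = 0.136). GAD1, PVALB and SST were chosen after their values were seen.

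Excitatory neuron genes were divided, with 3 higher and 4 lower of 12 (median 0.00). TBR1, a deep-layer transcription factor, rose by 0.34, whereas the neuronal splicing factor RBFOX3 fell by 0.32, EMX1 by 0.30 and NRGN, a calmodulin-binding postsynaptic protein, by 0.36. The cortical layer list held 8 higher and 2 lower of 19 genes (median 0.23), with 1 lower without batch 1 animal 1, 4 or 9 or batch 2 animal 6. It included the upper-layer factor CUX2 (0.66), RORB of layer 4 neurons (0.52) and TLE4 of layer 6 neurons (0.34). RELN, the secreted reelin, chosen after its values were seen, rose by 0.74. Among neuropeptide genes 0 of 20 rose and 4 fell (median -0.17), a share of 20% beside 16.8% of all genes. Only 1 fell without batch 1 animal 1 or 4, and 2 fell without batch 1 animal 9 or batch 2 animal 2, 5 or 9. CARTPT, the precursor of the CART peptides, ran from 37.4 to 48.5 CPM (median 44.9) in batch 1 and from 22.3 to 41.1 (median 27.1) in batch 2 (-0.59 ± 0.09 SE, adjusted p = 0.000182).

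Astrocyte markers gave 4 higher and 4 lower of 14 (median -0.07), with 2 lower without batch 1 animal 4. The water channel AQP4 ran from 302 to 581 CPM (median 446) in batch 1 and from 544 to 731 (median 633) in batch 2 (0.56 ± 0.09 SE, adjusted p = 0.000276), and the gap junction gene GJA1 rose by 0.37. Angiotensinogen, AGT, fell by 0.63 (adjusted p = 0.00125) and apolipoprotein E, APOE, chosen after its values were seen, by 0.39. Oligodendrocyte precursor genes gave 6 higher and 1 lower of 13 (median 0.25), led by PDGFRA, their growth factor receptor, at 3.41 to 14.01 CPM (median 8.23) in batch 1 and 7.99 to 23.9 (median 17.0) in batch 2 (1.04 ± 0.21 SE). The lower gene no longer passed in 10 of the 23 cases with 1 library left out. TNR and PTPRZ1, given above with the matrix genes, are on the precursor list too. Of 18 myelin genes 3 rose and 0 fell (median 0.10), among them ASPA (0.74) and ENPP2 (0.50, not passing with the span trend removed), a share of 16.7% beside 16.1% of all genes, and 5 rose without batch 2 animal 8. Of 15 endothelial and mural genes 2 rose (13.3%) and 0 fell (median 0.19), led by the pericyte channel subunit ABCC9 (0.89). That count was 6 without batch 2 animal 6, 7 without batch 2 animal 9, and 1 without batch 1 animal 4, 7 or 11 or batch 2 animal 2, 4, 8 or 10.

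Microglial genes were lower in batch 2. Of 18 tested markers, 14 fell and 0 rose, with a median of -0.42. CSF1R, the receptor that microglia need to survive (chromosome 2, 151099084 to 151129407), ran from 80.2 to 126 CPM (median 107) in batch 1 and from 54.5 to 98.9 (median 76.0) in batch 2 (-0.51 ± 0.10 SE, adjusted p = 0.000651). The complement component genes C1QC (-0.55), C1QB (-0.52) and C1QA (-0.49) and the myeloid transcription factor SPI1 (-0.41) fell too. So did CX3CR1 (-0.54), AIF1 (-0.48), TREM2 (-0.43), P2RY12 (-0.40) and TYROBP (-0.40), receptors, adaptors and a calcium-binding protein of microglia. These 5 and C1QA were chosen after their values were seen. CX3CR1 did not pass without the 3 libraries apart, nor TREM2 and TYROBP with the span trend removed.

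The mean log2 score of the microglial list, relative to its mean over all libraries, ran from -0.06 to 0.40 (median 0.22) in batch 1 and from -0.78 to 0.24 (median -0.13) in batch 2, so the batches overlapped. Between 11 and 15 markers were lower when each library was left out. Within 1 treatment or 1 time, with fewer animals, fewer passed: 5 in the psilocybin animals and 0 in the saline animals, 8 at 1 day and 2 at 1 week. Blood cell genes moved the same way, with 5 of 8 tested lower and 0 higher (median -0.53), and their part in the microglial result was not tested. HBB ran from 20.2 to 479 CPM (median 97.8) in batch 1 and from 10.7 to 73.1 (median 42.02) in batch 2. Its fold change stayed between -1.90 and -1.42 with each library left out, and the heme enzyme gene ALAS2 was at -1.44. The blood count was 3 without batch 1 animal 3, 8 or 10 or batch 2 animal 1, and 2 without batch 1 animal 4.

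Other immune genes differed in direction. Of 23 complement and inflammation genes 8 fell and 0 rose (median -0.20), among them the lipopolysaccharide co-receptor CD14 (-0.60), the cytokine IL18 (-0.53) and the inhibitor of NF-kappaB NFKBIA (-0.37). Only 4 of them fell without batch 1 animal 1, 4 or 9. Of 13 antigen presentation genes 3 fell (23.1%, beside 16.8% of all tested genes) and 0 rose. They included CIITA, the master regulator of class II genes (-0.41), and the invariant chain CD74 (-0.38). With 1 library left out the count ran from 2 to 4, and it differed from 3 in 18 of the 23 cases.

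Interferon response genes went the other way, with 9 higher (23.1%) and 1 lower (2.56%) of 39 (median 0.31), beside 16.1% and 16.8% of all tested genes. EIF2AK2, a kinase activated by double-stranded RNA, ran from 26.9 to 63.6 CPM (median 35.2) in batch 1 and from 39.9 to 72.3 (median 53.2) in batch 2 (0.51 ± 0.11 SE, adjusted p = 0.00202). The RNA sensor RIGI rose by 0.39, and IFI35 fell by 0.37. The count of higher genes was 5 without batch 1 animal 4 or batch 2 animal 2, 5 or 7, 14 without batch 2 animal 6, and 18 without batch 1 animal 6, whose list score of 0.76 was the highest of its batch. It was 0 in the 1 week animals alone.

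**Figure D3:**
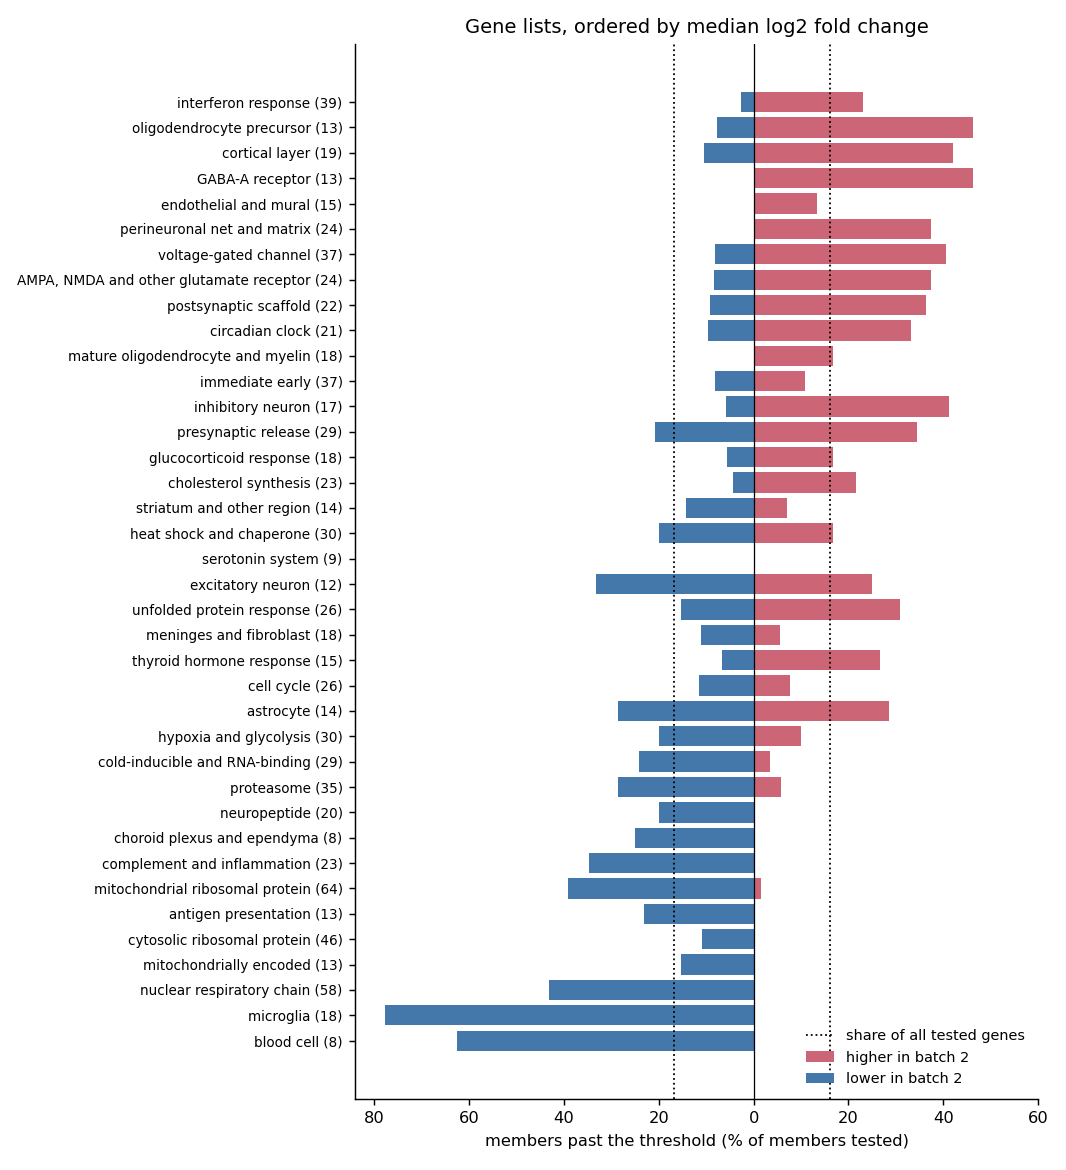
Percent of tested members higher (to the right) or lower (to the left) in batch 2 for each gene list with at least 5 tested members, ordered by median log2 fold change; dotted lines mark the shares over all tested genes (16.1% and 16.8%). Microglia and blood cell lists lie at the lower end, and interferon, precursor and cortical layer lists at the upper end.

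The respiratory chain couples electron transport to ATP synthesis, and of 58 tested nuclear genes for it 25 fell and 0 rose (median -0.26). NDUFA10, a complex I subunit, ran from 144 to 228 CPM (median 171) in batch 1 and from 113 to 166 (median 136) in batch 2 (-0.36 ± 0.08 SE, adjusted p = 0.00169). NDUFS3 (-0.33), NDUFA8 (-0.35), COX5A (-0.34), COX4I1 (-0.40) and NDUFS8 (-0.39), the last pair chosen after their values were seen, fell as well. In the 64 mitochondrial ribosomal protein genes 25 fell and 1 rose (median -0.20), led by MRPS9 (-0.24) and MRPL55 (-0.42). Of 13 mitochondrially encoded genes on the list 2 fell (median -0.26), among them ND6 (-0.37), a share of 15.4% beside 16.8% of all genes. None of the 13 had a positive fold change. Over all 33 tested genes of the mitochondrial genome, 16 were lower and 0 higher (48.5% called, beside 32.9% of all tested genes). How the count of 16 moves with libraries left out is not given here. COX4I1 and ND6 did not pass with the span trend removed.

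The counts of these lists rested on few libraries. For the respiratory chain list the lower count was 15 without batch 1 animal 1 or 4, 16 without batch 1 animal 9, and 48 without batch 2 animal 9. Its score ran from -0.02 to 0.47 (median 0.12) in batch 1 and from -0.30 to 0.56 (median -0.20) in batch 2, and the top of each range was a library that stood apart, batch 1 animal 9 and batch 2 animal 9. The mitochondrial ribosomal count was 15 to 16 without batch 1 animal 1, 4 or 9 and 39 without batch 2 animal 9. For the mitochondrially encoded list the lower count was 11 without batch 2 animal 9, 7 without batch 1 animal 8, 5 without batch 2 animal 2, and 1 in most other omissions. With the span trend removed, 13 genes of the respiratory chain list and 13 of the mitochondrial ribosomal list were lower, and within the 1 day animals 0 respiratory chain genes passed.

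Cytosolic ribosomal protein genes showed how far 1 library set a count. Of 46 tested, 5 fell (10.9%, beside 16.8% of all tested genes) and 0 rose (median -0.25). Without batch 2 animal 9, whose score for this list was 0.87, 34 fell. Without batch 1 animal 4, 0 fell, with 1 to 8 lower in the other cases that moved the count. Ribosomal protein genes have near-identical processed copies in the genome, so their counts are uncertain. Proteasome genes gave 2 higher and 10 lower of 35 (median -0.12), among them PSMD3 (-0.22, not passing with the span trend removed) and PSMC4 (-0.27) lower and the activator PSME3 (0.21) higher. The higher count was 1 in 10 of the 23 cases with 1 library left out, and the lower count was 5 without batch 1 animal 1 or 4 and 6 without batch 1 animal 9.

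Among stress and hormone pathways, the unfolded protein response gave 8 higher (30.8%) and 4 lower (15.4%) of 26 (median -0.01). Over all tested genes 16.1% were higher and 16.8% lower. SEL1L, of the degradation complex of the endoplasmic reticulum, rose by 0.47, the chaperone CANX by 0.33, DNAJC3 by 0.52 and the sensor ATF6 by 0.36. Heat shock genes gave 5 higher (16.7%) and 6 lower (20%) of 30, near the shares over all tested genes. HSPB1 was at -0.45 and HSPA4L at 0.23, the latter not passing with each library's trend on exon length removed. HIF1A (0.41) and EPAS1 (0.60), the oxygen-regulated transcription factors, rose. Their list, of hypoxia and glycolysis genes, gave 3 higher (10%) and 6 lower (20%) of 30 (median -0.08). The lower count was 1, 2 and 3 without batch 1 animals 1, 4 and 9. The higher count was 5 without batch 1 animal 8 or 9 or batch 2 animal 9. In cholesterol synthesis 5 of 23 rose (21.7%) and 1 fell (4.35%). HMGCS1 (0.40), which catalyses an early step, was among those higher. The lower count of that list was 0 or 2 in 19 of the 23 cases with 1 library left out. The clock list gave 7 higher (33.3%) and 2 lower (9.52%) of 21, including BHLHE40 (0.41) and NR1D2 (0.31). Its lower count was 1 in 11 of the 23 cases with 1 library left out.

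RNA-binding and splicing genes gave 1 higher (SRSF3, 0.35) and 7 lower of 29 (3.45% and 24.1%, beside 16.1% and 16.8% of all tested genes). LUC7L3 was at -0.58 and TRA2A at -0.33, and 11 genes of this list were lower without batch 2 animal 12.

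Most genes tied to the study's question did not pass, and neither did most tested genes, of which 32.9% passed. Immediate early genes, switched on by neuronal activity, gave 4 higher (10.8%) and 3 lower (8.11%) of 37 (median 0.09). The shares over all tested genes were 16.1% and 16.8%. Only 1 immediate early gene was lower without batch 1 animal 1 or 4. EGR3 rose by 0.74, KLF6 by 0.68 and the phosphatase DUSP4 by 0.55, and IER3 fell by 0.99. FOS was at 8.15 to 46.9 CPM (median 25.7) in batch 1 and 17.2 to 45.6 (median 22.4) in batch 2 (-0.06 ± 0.20 SE, adjusted p = 0.845). ARC was at 0.32 ± 0.27 (SE, adjusted p = 0.391) and BDNF, the brain-derived neurotrophic factor, at -0.06 ± 0.12 (SE, adjusted p = 0.754). Of 9 serotonin system genes 0 passed, beside 32.9% of all tested genes, and at most 1 rose or fell with any 1 library left out. HTR2A, the serotonin 2A receptor, was at 10.1 to 21.9 CPM (median 17.4) and 10.9 to 23.5 (median 16.3), a difference of 0.02 ± 0.15 (SE, adjusted p = 0.947), and HTR2C was at 0.16 ± 0.08 (SE, adjusted p = 0.156). SV2A, the synaptic vesicle glycoprotein read out by brain imaging of synapse density, was at 0.16 ± 0.09 (SE, adjusted p = 0.16) and passed without batch 2 animal 9 (0.23, adjusted p = 0.0148).

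Whether the batch difference itself varied with treatment or time was tested with interaction terms. None of 15049 genes (0%) passed for treatment and none (0%) for time with edgeR's quasi-likelihood test. At an unadjusted p under 0.05 there were 131 and 549 genes, where 752 would be expected with no difference. DESeq2 gave 0 (132 unadjusted) for treatment and 4 (534) for time, and limma-voom 0 (135) and 0 (523). With 2 or 3 animals in each batch and group, a p above the threshold does not show that the batch difference was alike in the groups.

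The 1 day and 1 week animals share no library, so the batch difference could be set side by side in separate animals. In the 11 animals at 1 day 1491 of 14527 genes passed, and in the 12 at 1 week 1026 passed. The 453 genes that passed at both times were 30.4% of the first list and 44.2% of the second, and all 453 had the same sign. Genes called at 1 day had the same sign at 1 week in 98.2% of cases, and those called at 1 week in 96.9%, against 78.1% of all genes. The correlation of the log2 fold changes over genes was 0.699. Saline and psilocybin animals gave 320 and 1819 calls of 14519 genes, of which the shared genes were 79.1% of the first list and 13.9% of the second, and the correlation was 0.803.

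**Figure D4:**
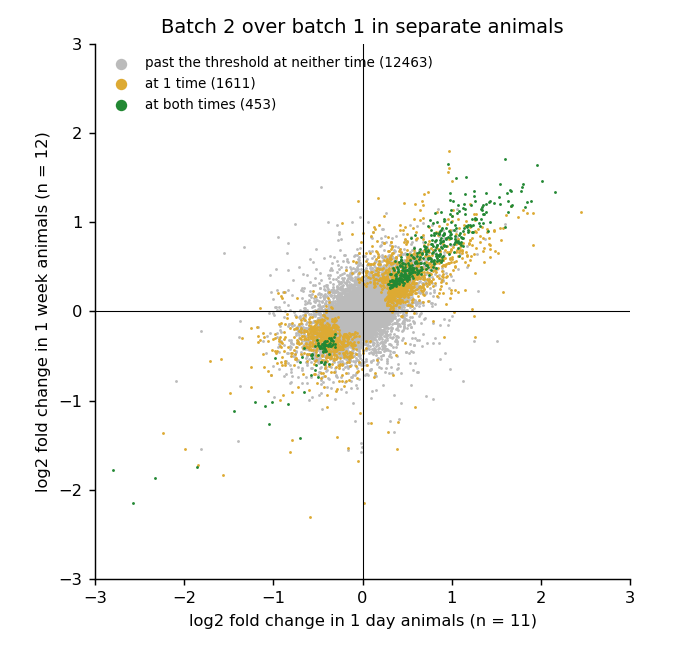
Log2 fold change of batch 2 over batch 1 in the 1 day animals (n = 11, horizontal) against the 1 week animals (n = 12, vertical), 1 point per gene, coloured by whether it passed at neither time (12463), at 1 time (1611) or at both (453). Genes that passed at both times lie to the lower left and the upper right.

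Several named genes passed at only 1 of the times, which is not shown to be a difference between the times. HBB, CARTPT, PVALB, SYT2, AGT and CCDC136 passed in the 1 week animals alone and not in the 1 day animals alone. CSF1R, GRIN2A, GRIN2B, BSN and EIF2AK2 passed in the 1 day animals alone and not in the 1 week animals alone.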

How the data were processed

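Poly-A RNA of the prefrontal cortex was sequenced for 23 pigs. The authors deposited expected counts for 25880 Ensembl genes. The tools were fastp 0.20.0 for the reads, STAR 2.6c with build susScr11 and featureCounts 1.5.1, per the submitters' processing notes. Primary alignments with both ends mapped were counted without strand, and reads over several genes were shared in fractions, per the file headers. Of all values 72.2% were whole (tolerance 0), and rounding them for the count models changed no library total by more than 0.0013%. Of the 196 genes named, 76 overlap another gene (35 on the same strand, 52 on the other), and their counts can hold reads of it. Symbols matched 14857 of the 25880 identifiers and 12495 of the 15049 tested. Positions are the exon spans in the table.

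Genes were kept with filterByExpr (minimum count 10, minimum total 15), scaled by TMM and tested with edgeR 4.0.16 in R 4.3.3 (robust quasi-likelihood F test, two-sided, Benjamini-Hochberg threshold 0.05), with the 4 groups and batch as terms. CPM use TMM-adjusted totals, and log2 CPM a prior count of 2. Interaction models had a mean for each batch and group. Library measures were tested by exact permutation of batch labels within groups (two-sided, 80000 arrangements, smallest possible p 1.25e-05). Each batch's libraries come from separate animals. The named genes are the 12 smallest p per direction, the 8 largest changes per direction at 1 CPM or more, up to 4 members per list by p, and HTR2A, HTR2C, SV2A, BDNF, FOS and ARC. This gives 168, and 28 were added after their values were seen. Some of these genes are not reported here. The 39 lists and the members were chosen with earlier results of these data known. Some genes are on more than 1 list, so the counts of such lists are not separate results. Unless stated, each call named in the report was kept with every library left out in turn. Alternatives used DESeq2 1.42.0, limma 3.58.1 and sva 3.50.0, among other settings. The models were also run on simulated counts, drawn for each gene independently from fitted group means. Those counts held no trend on span and no shifts shared between genes, so the run is no check on these features.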

Additional observations from a re-analysis of the deposited data

How the results depend on the processing

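Called genes numbered between 4019 (span trend removed) and 6210 (1 surrogate variable) under the alternatives run on all libraries, against 4955. The lowest count among planned ones was 4384 (no filter, of 21487 genes). RLE scaling gave 2628 higher and 2265 lower. Subsets of the animals gave fewer: 321 in saline (273 higher, 48 lower), 1824 in psilocybin (1207 and 617), 1498 at 1 day (996 and 502) and 1026 at 1 week (670 and 356), with fewer samples in each. Leaving out 1 animal gave 1560 to 2660 lower genes. Counts of 0 or 1 higher gene in the complement, respiratory chain, mitochondrial ribosomal, neuropeptide and RNA-binding lists changed by 1 in some of these cases. Without the 3 libraries apart 5799 passed, 4556 of them among the 4955. Batch by time gave 4 with DESeq2 and 0 to 1 with 1 animal left out (1 without batch 1 animal 8). The correlation with exon length was -0.00493 with the exon length trend removed and 0.0563 with the span trend removed, as the construction of these settings makes it.

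Of the library measures, PC1 kept its call with each animal left out. The planned omissions gave differences with no test, and the exact permutation test run again for each omission was added after the data were seen. Over both, the difference of batch 2 from batch 1 ran from -2.74 to -1.91 percentage points for the mitochondrial share, from -2.48 to -1.71 for the 10 and from -2.52 to -1.77 for the 100 most abundant genes, from -0.172 to -0.0711 for ribosomal protein genes and from 173 to 234 bases for exon length. The test no longer passed in 15, 16, 16 and 14 of 23 omissions for the mitochondrial, top 10, top 100 and length measures, and the ribosomal share passed in 1 of 23, without batch 2 animal 9 (adjusted p = 0.0262).

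Genes that had not passed changed sign in places, and none of these values passed. HTR2A was at -0.00414 with limma-voom, -0.000339 without the group covariate, -0.327 at 1 week, -0.00444 with the exon length trend removed and -0.0412 with the span trend removed. FOS was at 0.0384 in saline, 0.350 at 1 week and 0.0921 with the span trend removed, HTR2C at -0.00783 with the span trend removed, ARC at -0.263 at 1 day and BDNF at 0.135 at 1 week. GAD1 was at 0.106 at 1 day and 0.00340 without the 3 libraries apart. With each animal left out the ranges were -0.111 to 0.0144 for BDNF, -0.191 to 0.0773 for FOS, -0.0809 to 0.0824 for HTR2A and -0.0725 to 0.0154 for GAD1. The cause was not tested. No paired analysis was possible because no animal number is shared between the batches.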

Other observations

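Of 15 thyroid hormone genes 4 were higher and 1 lower in batch 2 (median log2 fold change -0.03; 2 lower without batch 2 animal 12), among them the receptor THRB (0.28), which did not pass with the span trend removed. Of 18 glucocorticoid response genes 3 were higher and 1 lower (median 0.04), with 6 higher without batch 2 animal 9, including the transcription factor KLF9 (0.34), which is on both lists, and PDK4 (0.41). Meningeal and fibroblast genes gave 1 higher and 2 lower of 18 (median -0.03; 2 higher without batch 2 animal 6), with the proteoglycan genes OGN at 0.27 and BGN at -0.43. Choroid plexus and ependymal genes gave 0 higher and 2 lower of 8 (median -0.18; 1 lower without batch 1 animal 4), among them RSPH1 (-0.59), a gene of motile cilia. Cell cycle genes gave 2 higher and 3 lower of 26 (median -0.04), with 0 or 1 higher in 12 of the 23 cases with 1 library left out, and genes of the striatum and other regions 1 higher and 2 lower of 14 (median 0.02), with tyrosine hydroxylase, TH, at -0.55. For the last list the counts ran from 0 to 2 higher and from 1 to 4 lower over these cases. None of 3 tested replication-dependent histone genes passed, and 1 was higher without batch 1 animal 9. The called values are from edgeR's quasi-likelihood test, with 16.1% of all tested genes higher and 16.8% lower.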
